A study of Mus musculus with 36 samples.

Results

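In crypts of the mouse small intestine, 1281 distal regions carried both H3K27ac and H3K9bhb in the 2 fasted pools and in neither fed pool. To find them, the peaks of the 4 H3K27ac lists were merged wherever they overlapped or touched, which gave 43071 regions. A region was kept when it was shorter than 15000 bp and met no H3K4me3 peak in any list, which left 28547 regions called distal here. The members were those distal regions with an H3K27ac peak in both fasted pools and none in the fed pools, and the same for H3K9bhb, with an overlap of 1 bp counted as a peak. They made up 2.97% of all merged regions and 4.49% of the distal ones, and together they spanned 3.57 Mb. The members were chosen by H3K27ac, H3K9bhb and H3K4me3, so the values of these marks below are descriptions with no test, and tests were made on the marks that the choice did not use. Those marks were read in the same 4 pools, with each list called against the input of its pool. The tests are therefore not independent of the choice.

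Crypts of fed and of fasted mice were profiled for 8 histone marks with chromatin immunoprecipitation followed by sequencing. Fed mice had free access to food, and fasted mice had water and no food for 24 h. Each pool held whole crypts of 4 animals, male and female, aged 6 to 12 weeks, so each replicate stands for several animals. The labels give the genotype as wildtype, and the protocol lists C57BL/6J and Lgr5EGFP-IRES-CreERT2/+ mice without saying which strain entered which pool. All crypts were isolated in buffers with 100 nM trichostatin A, an inhibitor of histone deacetylases, in the fed as in the fasted group. Fed pools 1 and 4 and fasted pools 2 and 5 gave 32 peak lists, and a further 4 libraries were inputs. The library names carry the prefix 10 for fed pool 1 and fasted pool 2 and the prefix 11 for fed pool 4 and fasted pool 5. The labels do not say what the prefix marks, and values within these pairs are given beside the pooled ones as pair 10 and pair 11.

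Enhancers are stretches of DNA away from promoters that bind transcription factors and raise the transcription of genes that may lie far along the chromosome. H3K27ac is found at active enhancers and promoters, H3K4me1 at enhancers whether active or waiting, and H3K4me3 at promoters, which is why its absence was used to call a region distal. Lysine β-hydroxybutyrylation, written bhb, places an acyl group derived from the ketone body β-hydroxybutyrate on histones, and this ketone body rises in blood during fasting. The crypt holds the stem cells that renew the intestinal lining together with their dividing progeny and Paneth cells. In such mixed crypts, fewer cells that carry a mark and less of the mark per cell cannot be told apart. The lists hold no gene names, so markers of these cell types, nearest genes and DNA sequences were not analysed here, and each region goes by its position on the mm9 build.

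The number of members depended on how many peaks each list held. The H3K27ac lists held 27640 and 15504 peaks in fed pools 1 and 4 and 37974 and 35917 in fasted pools 2 and 5. For H3K9bhb, fed pools 1 and 4 had 19555 and 13923 peaks, and fasted pools 2 and 5 had 38934 and 37640. When each list was cut to the same number of its highest-scoring peaks, 15504 for H3K27ac and 13923 for H3K9bhb, 123 regions met the rule and 52 of the 1281 members overlapped one of them. When a score of 100 was required in every list, 1448 regions met the rule and 257 of the members overlapped one. The read depth behind the lists is unknown, and the absence of a peak means that none passed the threshold in that list. The unequal length of the lists and the fasting state cannot be told apart from these files.

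Of the 4841 distal regions that were fasted-only for H3K27ac, 26.5% were members, and of the 4922 that were fasted-only for H3K9bhb, 26.0% were. The background for the first of these patterns was 17.0% of the distal regions and for the second 17.2%. A further 561 regions were fasted-only for both marks but met an H3K4me3 peak, and 1 was at least 15000 bp long. The members were of middle length, from 755 to 10751 bp with a median of 2453 bp. Distal regions had a median length of 1328 bp, and distal acetylated regions with H3K9bhb in all 4 pools had one of 5893 bp. Longer regions have more room for a peak of any mark. Several comparisons of H4K12bhb, H3K4me1 and H3K79me2 below are therefore also given for regions of 2000 to 5000 bp. Score percentiles, splits by score, distances and the H3K27me3 comparisons are given over all lengths only.

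Members were middling peaks of their lists. A peak's score is the authors' own value from the peak caller MACS, by that program's convention 10 times the negative log10 of its p-value, with a lowest value of 50 in these lists. The percentile of a score is the share of peaks in the same list that it reaches or passes. The members' strongest H3K27ac peaks had a median percentile of 45.1 in fasted pool 2 and 41.2 in fasted pool 5, and their H3K9bhb peaks had 52.3 and 56.9. Regions with H3K9bhb in all 4 pools stood far higher, at 81.0 and 72.2 for H3K27ac and 86.2 and 84.9 for H3K9bhb. Across the 1281 members, the rank of the score in fasted pool 2 followed that in fasted pool 5 with a Spearman correlation of 0.447 for H3K27ac and 0.252 for H3K9bhb. Within a pool, the ranks of the 2 marks were only loosely related, at 0.123 in pool 2 and 0.149 in pool 5. These correlations describe regions of the same libraries, each pair of marks sharing its pool and input.

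Many members lay close to the thresholds. The lowest of a member's 4 scores had a median of 70.8, and it was under 60 in 372 members, or 29.0%. Just outside the rule, 840 regions missed it only through an H3K27ac peak in fed pool 1, of which 193 had a fed score under 60. Fed pool 4 alone kept out 219 regions by H3K27ac, 82 of them with a score under 60. H3K9bhb in fed pool 1 alone kept out 335 regions, and in fed pool 4 alone 183. On the other side, 545 regions lacked only H3K27ac in fasted pool 2 and 929 only H3K27ac in fasted pool 5. H3K9bhb was the one missing call in fasted pool 2 at 709 regions and in fasted pool 5 at 494.

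Within most members, peaks of the 2 marks overlapped. The rule favours this, because both marks had to lie in one region built from H3K27ac peaks. The H3K9bhb and H3K27ac peaks overlapped each other in 94.7% of members in fasted pool 2 and in 97.0% in fasted pool 5, and in both pools in 1176 members, or 91.8%. H3K27ac covered 74.5% of the members' bases in pool 2 and 85.9% in pool 5, and H3K9bhb covered 56.0% and 63.3%. Of the members' bases under H3K9bhb, 80.7% were also under H3K27ac in pool 2 and 86.4% in pool 5. These shares were not far above the 74.5% and 85.9% of all their bases that H3K27ac covered. The longest H3K9bhb peak of a member was somewhat shorter than the longest H3K27ac peak, with medians of 1493 against 1624 bp in pool 2 and 1728 against 1980 bp in pool 5. The centres of the 2 peaks were a median of 560 and 633.5 bp apart. H3K9bhb often ran on beyond the acetylated region, in 61.3% of members in pool 2 and 70.0% in pool 5.

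The members sat in surroundings that carried both marks in fasted crypts and, less often, in fed crypts. At a distance of 10 kb before the centre, H3K27ac covered 29.0% and 30.8% of the positions in fasted pools 2 and 5, and 14.1% and 5.62% in fed pools 1 and 4. H3K9bhb covered 27.8% and 31.4% there in the fasted pools, against 8.90% and 7.26% in fed ones. At the centre both marks were at 0 in the fed pools by the choice of members. These values were taken around the members only, and the fasted lists were longer. Whether other distal regions have like surroundings was not tested.

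**Figure D1:**
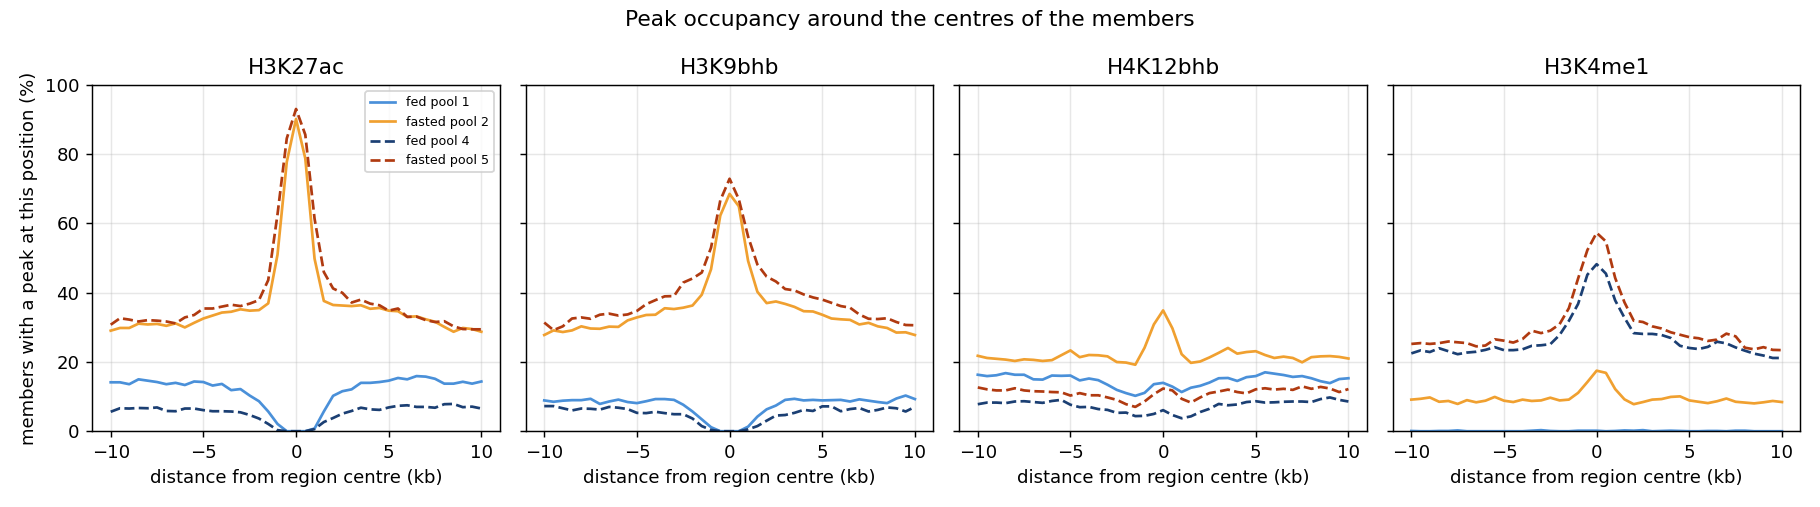
Percent of the 1281 members with a peak at each distance from the region centre (kb), for 4 marks, with one line per pool (blue fed, orange and red fasted; solid pair 10, dashed pair 11). H3K27ac and H3K9bhb were used to choose the members, so their gap at 0 kb is given by the choice; H4K12bhb was higher at the centre than 1.5 kb away in every pool, at 34.9% against 19.2% before it in fasted pool 2, and H3K4me1 was higher at the centre in fed pool 4 and both fasted pools.

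H4K12bhb, the second β-hydroxybutyryl mark measured and one on another histone, was called at more members in the fasted pool of each pair. A peak was called at 24.9% of the members in fed pool 1, 10.8% in fed pool 4, 47.4% in fasted pool 2 and 22.2% in fasted pool 5. Both fasted values exceeded the fed value of their own pair, but the groups overlapped, because fed pool 1 was above fasted pool 5. The mean was 17.8 ± 9.99% in fed and 34.8 ± 17.8% in fasted pools (SD, n = 2 each). The difference was 17.0 points (two-sided exact permutation test, which does not use the pairs, p = 0.667). With 2 pools against 2, the exact permutation test cannot go below p = 0.333. Within pair 10 the fasted share was 22.5 points higher, 1.903 times the fed value, and within pair 11 it was 11.5 points higher, 2.06 times. With fasted pool 2 left out and the members chosen anew from the other 3 pools, the difference was 4.29 points, and without fed pool 4 it was 8.89 points. With H4K12bhb lists cut to equal length it was 8.55 points. Over all 28547 distal regions the ratios within pairs were 1.21 and 1.11, and over the 6742 distal regions of 2000 to 5000 bp they were 1.21 and 1.09, against 2.03 and 2.16 at the 767 members of that length.

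Seen region by region, H4K12bhb went with the fasted pools at many members, though at 499 of them it was called in no pool. It was fasted-only, in both fasted pools and neither fed pool, at 102 members, or 7.96%, against a background of 2.18% of distal regions. It was fed-only at 15 members, or 1.17%, with a background of 1.1%. A peak in at least 1 fasted pool and in no fed pool was found at 401 members, 31.3%, where the background was 12.3%. The opposite pattern, a fed pool and no fasted pool, was found at 116 members, 9.06%, with a background of 8.01%. The 499 members without any H4K12bhb peak were 39.0%, against a background of 64.2%, and at 33 members, 2.58%, it was called in all 4 pools, against a background of 4.77%. The H4K12bhb lists held 23073 and 16560 peaks in fed pools 1 and 4 and 26252 and 20031 in fasted pools 2 and 5. The counts here and in the next 2 paragraphs were made on these unequal lists. The members are not replicates of each other, as every value comes from the same 4 libraries.

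Against distal regions of like length, the members had more H4K12bhb in the fasted pools and less in the fed pools. Among regions of 2000 to 5000 bp it was called at 25.8% of the members and 36.4% of all distal regions in fed pool 1, and at 11.2% and 18.5% in fed pool 4. In fasted pool 2 these shares were 52.4% and 44.0%, and in fasted pool 5 they were 24.3% and 20.2%. At this length 64 of 767 members, 8.34%, were fasted-only for H4K12bhb, against a background of 4.38%, and 9, 1.17%, were fed-only, against 2.64%. A fasted pool and no fed pool had a peak at 34.3% of these members and 19.4% of the distal regions, and a fed pool and no fasted pool at 8.47% and 13.2%. No H4K12bhb peak was called at 34.8% and 39.0%. The distal regions include those with fed H3K27ac, which the choice of members barred, and the part of this choice was not tested. At this length, distal regions fasted-only for H3K27ac without H3K9bhb had less H4K12bhb than the members in every pool. They had it at 17.2% and 5.51% in fed pools 1 and 4, and at 18.1% and 10.4% in fasted pools 2 and 5.

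The direction held in each pair. Fasted pool 2 had a peak where fed pool 1 had none at 393 members, 30.7%, with a background of 11.8%, and the reverse held at 105, 8.20%, with a background of 7.3%. Fasted pool 5 had a peak where fed pool 4 had none at 227 members, 17.7%, with a background of 6.85%, and the reverse held at 80, 6.25%, with a background of 5.58%. Among regions of 2000 to 5000 bp the fasted peak alone was found at 34.2% of the members and 19.9% of distal regions in pair 10, and at 19.2% and 12.8% in pair 11. Along the members, the share with an H4K12bhb peak was higher at the region centre than 1.5 kb before and after it in every pool. It was 34.9% at the centre in fasted pool 2 against 19.2% and 19.8% at 1.5 kb, and 12.3% in fasted pool 5 against 7.03% and 8.27%. In fed pool 1 it was 13.97% against 10.2% and 12.6%, and in fed pool 4 it was 6.09% against 4.37% and 4.29%. At 5 kb before and after, the shares were 23.3% and 23.1% in fasted pool 2 and 10.3% and 12.1% in fasted pool 5, while in the fed pools they were above those at the centre.

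**Figure D2:**
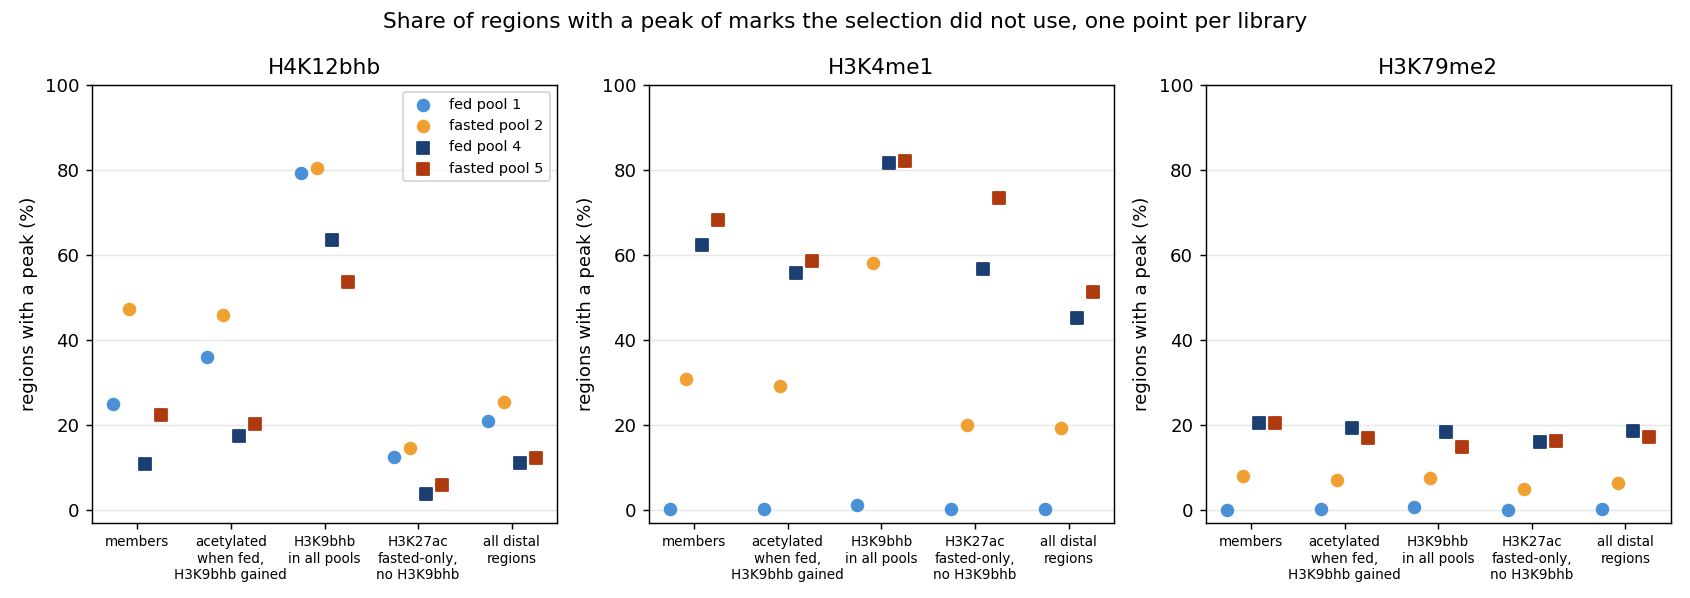
Percent of regions with a peak of H4K12bhb, H3K4me1 or H3K79me2 in each pool (one point per library; circles pair 10, squares pair 11) for the members, 3 other sets of distal regions and all distal regions. H4K12bhb at the members stood in every pool between the set with H3K9bhb in all pools and the set without it, at 47.4% in fasted pool 2 and 24.9% in fed pool 1; H3K4me1 and H3K79me2 were near 0 in fed pool 1 in all sets.

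The members were set beside 3 other sets of distal regions, none of which H4K12bhb helped to choose. The first set held 2167 regions that were acetylated in at least 1 fed pool and fasted-only for H3K9bhb. The second held 1679 acetylated regions with H3K9bhb in all 4 pools. The third held 1369 regions that were fasted-only for H3K27ac, as the members are, but had no H3K9bhb in any list.

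H4K12bhb was called least often in the set without H3K9bhb and most often in the set with H3K9bhb in all pools. In the third set it was called at 12.5% of the regions in fed pool 1, 3.80% in fed pool 4, 14.5% in fasted pool 2 and 5.77% in fasted pool 5, below the members in every pool. The members stood 17.2 points higher on average over the 4 pools (two-sided exact sign-flip permutation test, p = 0.125, the smallest p that 4 pools allow). In the second set it was called at 79.2%, 63.6%, 80.4% and 53.7% in the same order of pools, and members minus this set was −42.9 points (p = 0.125, same exact test). Among regions of 2000 to 5000 bp, these differences were 15.6 and −23.2 points. The third set also had weaker H3K27ac peaks than the members. Its median percentiles were 28.1 and 33.8 in fasted pools 2 and 5, against 45.1 and 41.2. The part of peak strength in the H4K12bhb gap was not tested.

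The first set differed from the members mainly in the fed pools. There H4K12bhb was called at 36.0% of the regions in fed pool 1 and 17.5% in fed pool 4, so that members minus this set was −11.1 and −6.72 points. In fasted pools 2 and 5 the set had 45.8% and 20.2%, and members minus this set was 1.56 and 2.08 points. The mean difference over the pools was −3.54 ± 6.45 points (SD, n = 4; exact sign-flip permutation test, p = 0.5). That difference turned to 11.7 points when lists of equal length were used. Among regions of 2000 to 5000 bp, members minus this set was −18.2 and −10.1 points in fed pools 1 and 4. In fasted pools 2 and 5 the set had 54.0% and 23.3% at this length, near the members' 52.4% and 24.3%. The mean difference there was −7.23 ± 8.72 points (p = 0.25, same exact test).

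The fasted minus fed difference in H4K12bhb was larger at the members than in each compared set, in both pairs. It exceeded that of the first set by 10.7 points, with 12.7 in pair 10 and 8.80 in pair 11. It exceeded that of the second set by 21.4 points in the mean and in each pair. It exceeded that of the third set by 15.0 points, with 20.5 in pair 10 and 9.50 in pair 11. Each of these differences gave the smallest p that 2 pools against 2 allow in an exact permutation test, p = 0.333, so that none could pass a threshold of 0.05. Among regions of 2000 to 5000 bp they were 13.8, 25.8 and 17.0 points. The members were chosen for a change between these same pools, and the second set for H3K9bhb in all of them. The part of this choice in the differences was not tested.

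H3K4me1, the enhancer mark, was present at most members in 1 fed pool. It was called at 0.312% of the members in fed pool 1, 62.5% in fed pool 4, 30.8% in fasted pool 2 and 68.1% in fasted pool 5. The H3K4me1 list of fed pool 1 held 309 peaks against 39865, 18692 and 46499 in fed pool 4 and fasted pools 2 and 5, and 309 peaks can touch few members. The groups overlapped, with a difference of 18.1 points (two-sided exact permutation test, p = 0.667). In pair 11, whose lists are of similar length, the difference was 5.70 points. Without fed pool 1, over the 3135 regions that met the rule in the other 3 pools, the difference was −13.7 points, and without fasted pool 5, over 4978 regions, it was −3.67 points.

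At 800 members, 62.5%, H3K4me1 was called in a fed pool although neither H3K27ac nor H3K9bhb was, against a background of 45.2% of distal regions. It was called in some pool at 979 members, 76.4%, with a background of 59.2%, and was fasted-only at 31, 2.42%, with a background of 1.61%. Among regions of 2000 to 5000 bp the members' shares were no higher than those of distal regions, at 68.6% against 69.9% in a fed pool and 83.1% against 83.5% in some pool. By pool, distal regions of this length had H3K4me1 at 69.9% in fed pool 4 and 76.8% in fasted pool 5, and the members at 68.6% and 76.1%. In pair 11, a peak in fasted pool 5 and none in fed pool 4 was found at 166 members, 12.96%, near the background of 13.2%. The reverse was found at 93 members, 7.26%, near the background of 7.24%. H3K4me1 peaks were centred on the members in fed pool 4, with 48.2% of the members covered at the centre and 22.5% at 10 kb before it. In fasted pool 5 these values were 57.3% and 25.2%.

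Beside the first and the second compared set, the members' H3K4me1 depended on the length of the regions. They stood 4.50 points above the first compared set over the 4 pools (exact sign-flip permutation test, p = 0.125), but 0.697 points above it among regions of 2000 to 5000 bp. Members minus the second set was −15.3 points over all lengths and 1.38 points at 2000 to 5000 bp, both at p = 0.125 in the same exact test. Against the third set the direction differed between pools. At 2000 to 5000 bp, members minus this set was 10.3 points in pool 2 and −8.88 in pool 5 of the fasted mice. For fed pools 1 and 4 it was −0.139 and −1.02 points. Over all lengths, the fasted minus fed difference in pair 11 was 16.8 points in the third set and 5.70 at the members. In pair 10, where fed pool 1 had few peaks, it was 19.8 and 30.5 points.

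Members with an H3K4me1 peak in fed pool 4 had more H4K12bhb in every pool than the other members. Among these 800, H4K12bhb was called in 28.4% and 13.9% in fed pools 1 and 4 and in 55.5% and 28.7% in fasted pools 2 and 5. Among the other 481 the values were 19.1%, 5.61%, 33.9% and 11.4%. The 800 were also longer, with a median of 2758 against 2064 bp, but within 2000 to 5000 bp the gap remained, with 59.5% against 36.9% in fasted pool 2 and 29.9% against 12.0% in fasted pool 5. Other distal regions were not split in this way.

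H3K79me2, which is laid down along the first part of transcribed genes, was called at about 1 member in 5 in pair 11. The shares were 0% in fed pool 1, 20.5% in fed pool 4, 8.04% and 20.4% in fasted pools 2 and 5. In pair 11 the fed and fasted values were all but equal, while the list of fed pool 1 in pair 10 held 571 peaks in all. The difference of 3.94 points was below the SD of 14.5 in fed and of 8.72 in fasted pools (n = 2 each; exact permutation test, p = 1). Over the 4 pools the members stood 1.33 points above the first compared set and 1.95 above the second (exact sign-flip permutation tests, p = 0.25 and 0.375). Among regions of 2000 to 5000 bp these differences were 1.49 and 5.13 points (p = 0.25 for each, same exact test). H3K79me2 was called in some pool at 301 members, 23.5%, with a background of 20.7%. At these 301, H4K12bhb was called in 34.2% and 15.9% in fed pools 1 and 4 and in 63.5% and 41.9% in fasted pools 2 and 5, against 22.0%, 9.18%, 42.4% and 16.2% at the other 980.

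The repressive marks were almost absent from the members. H3K27me3, the Polycomb mark, was called at 9 members in all, 0.703%, with a background of 0.872% of distal regions. Its shares were 0.0781% in each fed pool and 0.625% and 0.234% in fasted pools 2 and 5, or 1, 1, 8 and 3 members. The groups did not overlap, and the exact permutation test gave its smallest p of 0.333, but the H3K27me3 lists were also longer in the fasted pools, with 18259 and 20887 against 6914 and 3760 peaks. Members minus the first and the second compared set was 0.0691 and 0.12 points (exact sign-flip permutation tests, p = 0.625 and 0.25). H3K9me3, a mark of heterochromatin, was called at 0 members in every pool, in lists of 59 to 4376 peaks, with a background of 0.0701%.

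The members lay closer to chromatin acetylated in fed crypts than the regions that were fasted-only for H3K27ac without H3K9bhb did. The nearest H3K27ac peak of either fed pool was a median of 3196 bp away, from 3 to 2090478 bp, against 12169 bp for that set. It lay within 1000 bp of 326 members, 25.4%, and within 5000 bp of 796, 62.1%. At 158 members, 12.3%, it was 25000 bp or more away. Over all distal regions, many of which hold a fed peak themselves, the median was 882 bp, with 51.0% within 1000 bp, 71.0% within 5000 bp and 12.7% at 25000 bp or more. The nearest fed H3K9bhb peak was a median of 4588 bp away, and the nearest H3K4me3 peak of any list 12532 bp, with 79 members under 1000 bp from one. These distances follow in part from the rule, which barred fed peaks inside a member and not beside it.

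H4K12bhb in the fed pools was more frequent near fed acetylation, while in the fasted pools it was not, a description with no test. Among the 326 members within 1000 bp of a fed H3K27ac peak, it was called in 36.8% and 14.4% in fed pools 1 and 4 and in 42.6% and 20.6% in fasted pools 2 and 5. Among the 470 members at 1000 to 5000 bp the shares were 22.8%, 12.1%, 45.5% and 21.3%. Among the 327 members at 5000 to 25000 bp they were 18.0%, 6.12%, 52.6% and 24.8%. The fasted minus fed difference was therefore smallest beside fed peaks, at 5.83 points in pair 10 and 6.13 in pair 11, and reached 34.6 and 18.7 points at 5000 to 25000 bp. Beyond 25000 bp, in 158 members, it was 31.0 and 14.6 points. Members farther from fed peaks were also longer, with medians from 1936.5 to 3736 bp over the 4 ranges.

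**Figure D3:**
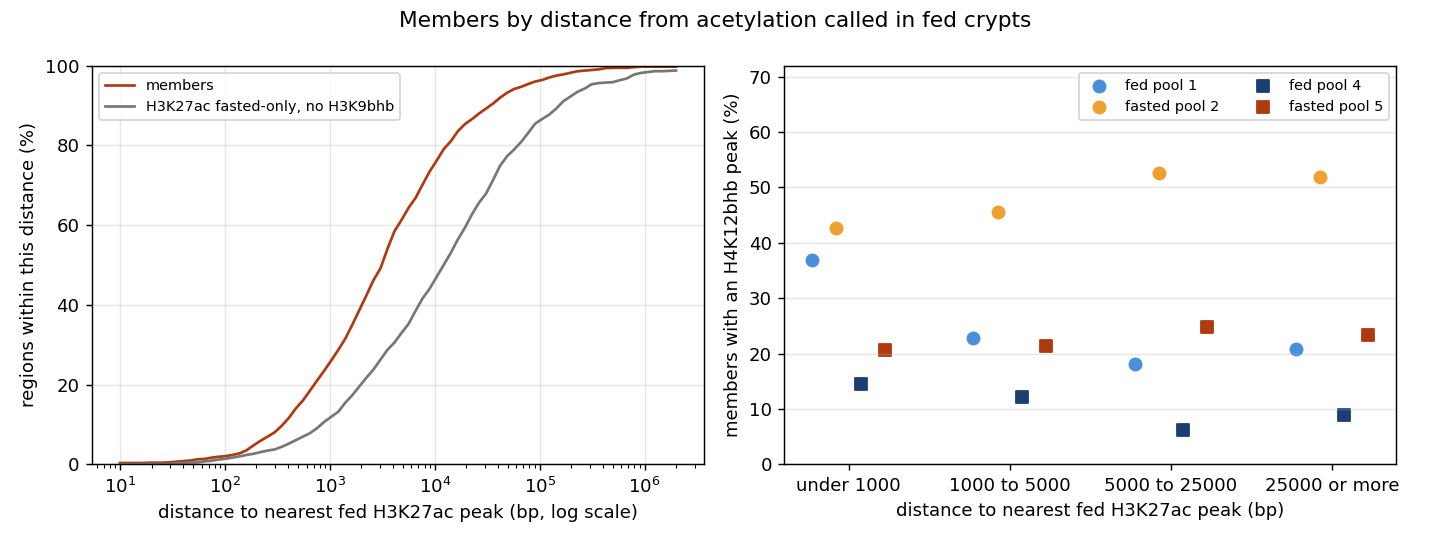
Left, percent of regions whose nearest fed H3K27ac peak lies within the given distance (bp, log scale), for the 1281 members and the 1369 regions fasted-only for H3K27ac without H3K9bhb; right, percent of members with an H4K12bhb peak in each pool (one point per library) by that distance. The members' curve lies to the left, with medians of 3196 and 12169 bp, and the gap between fed and fasted pools of a pair widens from under 1000 bp to 5000 to 25000 bp.

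The members also differed among themselves by strength. Members were split into 4 nearly equal parts by the lowest of their 4 score percentiles. In the part where it was highest, 320 members, H4K12bhb was called in 32.5% and 16.2% in fed pools 1 and 4 and in 69.1% and 37.5% in fasted pools 2 and 5. In the part where it was lowest, 321 members, the values were 19.3%, 5.61%, 32.7% and 14.02%. The strong part was longer, with a median of 3392 against 1942 bp.

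The 10 members whose lowest of 4 score percentiles was highest were from 4873 to 10020 bp long and lay 1489 to 212435 bp from the nearest fed H3K27ac peak. The first was chr6:99121013-99125885, 49507 bp from fed acetylation. Its H3K27ac peaks stood at percentiles 85.9 and 83.0 in fasted pools 2 and 5, and its H3K9bhb peaks at 90.8 and 89.3. H4K12bhb was called there in all 4 pools and covered 60.02% and 30.2% of it in fed pools 1 and 4 and 78.0% and 74.5% in fasted pools 2 and 5. The second, chr12:85317376-85325077, and the third, chr6:5512100-5520686, were nearly free of H4K12bhb, with a peak in fasted pool 5 alone that covered 12.2% and 8.90% of them. The fifth, chr2:155464897-155470335, had H4K12bhb over 45.6% and 22.8% in the fed pools and over 92.7% and 93.5% in the fasted pools. The sixth, chr4:125092062-125101523, was the farthest of the 10 from fed acetylation, at 212435 bp.

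The others were chr4:57250116-57256704, chr5:30494304-30500167, chr14:9074388-9084407, chr7:114821929-114826857 and chr16:8523054-8528275. Of the 10, H4K12bhb was called in a fasted pool at 10 and in a fed pool at 7. Over all members these shares were 52.0% and 29.7%, against a background of 27.8% and 23.6% of distal regions. H4K12bhb was fasted-only in both pools at 1 of the 10, the region on chromosome 14. H3K4me1 was called in fed pool 4 at 9 of the 10 and in fasted pool 5 at 10, and the region on chromosome 14 was the one without it in a fed pool. The background was 45.2% and 51.2% of distal regions in these pools. Among the 320 longest members, the shares with H3K4me1 were 80.9% and 91.9%. H4K12bhb was called at 29.4% and 15.9% of these 320 in fed pools 1 and 4, and at 67.2% and 34.4% in fasted pools 2 and 5. By pool, it was called at 7, 3, 8 and 7 of the 10 in the same order.

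Of the 102 members that were fasted-only for H4K12bhb as well, 5 were named for the percentile of that mark. They were chr2:30231653-30240249, chr1:134029135-134032636, chr12:103883342-103887108, chr12:81310852-81313800 and chr2:30103093-30109474. In the first, H4K12bhb covered 80.9% in fasted pool 2 and 58.4% in fasted pool 5, at percentiles 78.7 and 83.1, with no peak in the fed pools. The region on chromosome 1 was covered to 90.6% and 100% by H4K12bhb in fasted pools 2 and 5, and to 100% by H3K4me1 and by H3K79me2 in fed pool 4. Of these 5, H3K4me1 was called in fed pool 4 at 5 and H3K79me2 in fed pool 4 at 4. Over all members these shares were 62.5% and 20.5%, against a background of 45.2% and 18.5% of distal regions. The lack of fed H3K27ac and of both β-hydroxybutyryl marks at the 5 follows from how they were picked.

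Most members had no other member within 25000 bp, in a set that made up 4.49% of distal regions. How an equal number of other distal regions would group was not tested. Joined across gaps of up to 25000 bp, the members formed 1097 groups, of which 951 held 1 member and 146 held more. The latter took 330 members, or 25.8%, and the largest held 5. It lies at chr5:106183471-106258978 and spans 75508 bp. Its members are 495 to 6013 bp from fed acetylation, which was called between them, with a fasted H3K4me3 peak in the same place. H4K12bhb was called at 3 of its 5 members in each fasted pool and at 0 in each fed pool, and H3K4me1 at 4 in fed pool 4.

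One group of 4 members, at chr12:12792844-12809842 and spanning 16999 bp, lay at 413353 to 426185 bp from the nearest fed H3K27ac peak. H3K27ac covered 85.1% of it in fasted pool 2 and 83.1% in fasted pool 5, and H3K9bhb covered 57.6% and 78.1%, with 0% in the fed pools. H4K12bhb was called at 1 of these members in fed pool 1, 0 in fed pool 4, 4 in fasted pool 2 and 1 in fasted pool 5. H3K4me1 covered 31.2% of the group in fed pool 4 and 49.7% in fasted pool 5. Another of the 3 groups of 4, at chr12:100649324-100679935, spans 30612 bp with fed H3K27ac peaks over 8.54% of it in fed pool 1 and 3.79% in fed pool 4.

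**Figure D4:**
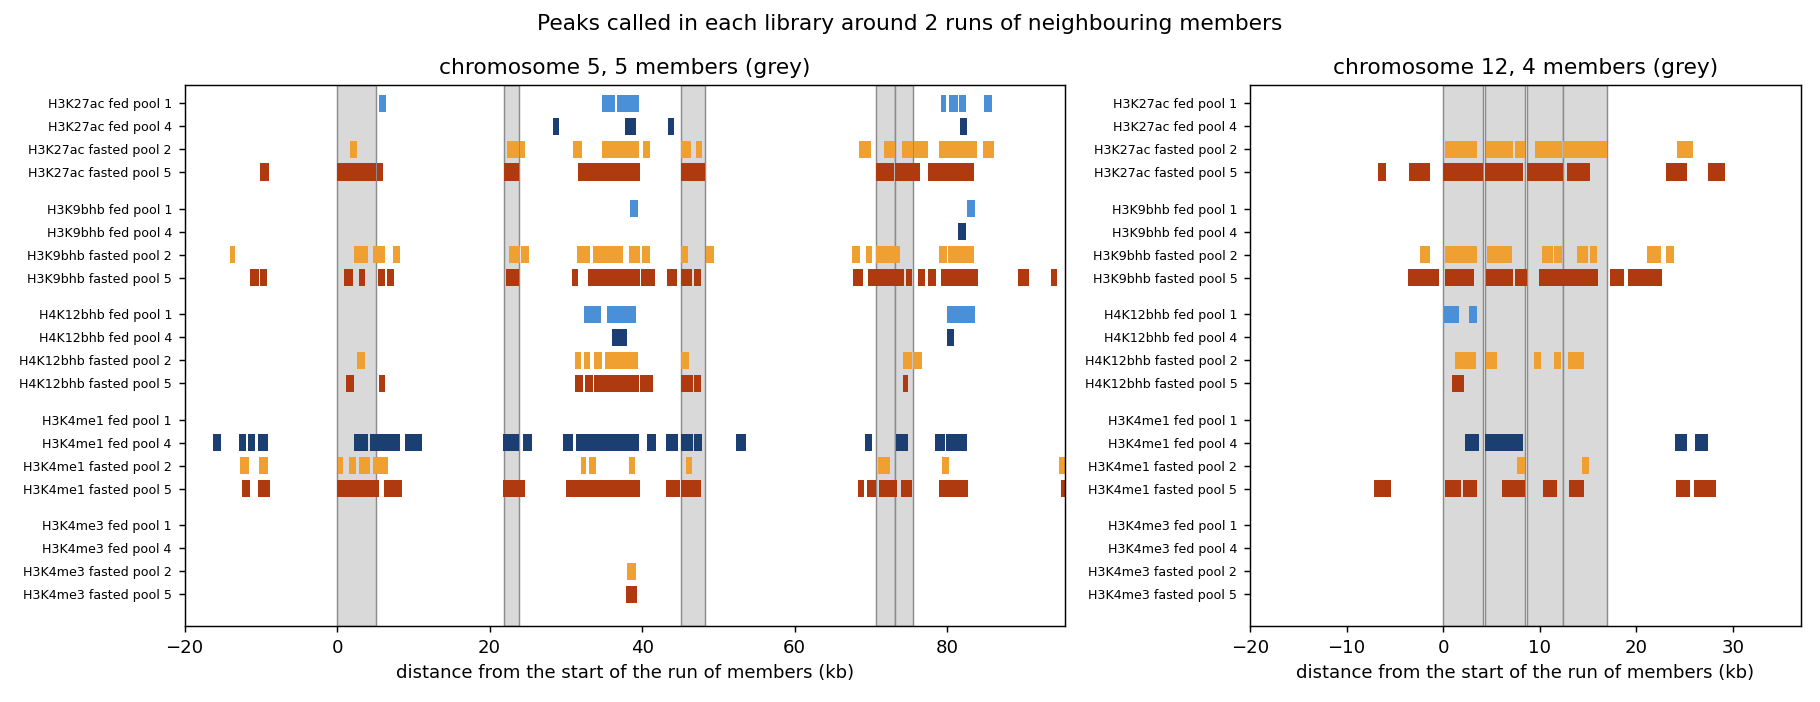
Peaks called in each pool for 5 marks around the groups of 5 members on chromosome 5 and of 4 members on chromosome 12, by distance from the start of the group (kb); grey bands are the members, bars are peaks, blue fed and orange or red fasted. On chromosome 5 the members flank places acetylated in fed crypts, and on chromosome 12 no fed H3K27ac or H3K9bhb peak appears in the window while H3K4me1 is called in fed pool 4.

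At the extremes of distance stood members with few other marks. The nearest to fed acetylation was chr8:107545232-107547415, 3 bp from a fed peak, whose H3K27ac peaks stood at percentiles 12.3 and 38.9 in fasted pools 2 and 5, and none of the marks that the choice did not use was called there. The farthest was chrX:137038507-137043032, at 2090478 bp, with H3K27ac at percentiles 42.7 and 80.2 and H4K12bhb in fasted pool 2 alone.

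Members were found on every autosome and on the X chromosome. Their number per 100 distal regions ranged from 3.26 to 5.82 over the autosomes with a median of 4.65, and it was 2.86 on the X chromosome, with 7 members among 245 distal regions. Of the distal regions that were fasted-only for H3K27ac, members took 19.7 to 31.9 per 100 on the autosomes and 10.9 per 100 on the X chromosome, 7 of 64, where 48 had no H3K9bhb in any list. The X chromosome also stood apart in the H3K27ac lists themselves, which touched 2.45% and 1.22% of its distal regions in fed pools 1 and 4, and 33.9% and 93.9% in fasted pools 2 and 5. On the autosomes the 2 fasted lists touched nearly equal shares, 62.1% and 62.0%. The labels give every pool as male and female animals, without their numbers, and the part of the pools' makeup in this difference was not tested.

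**Figure D5:**
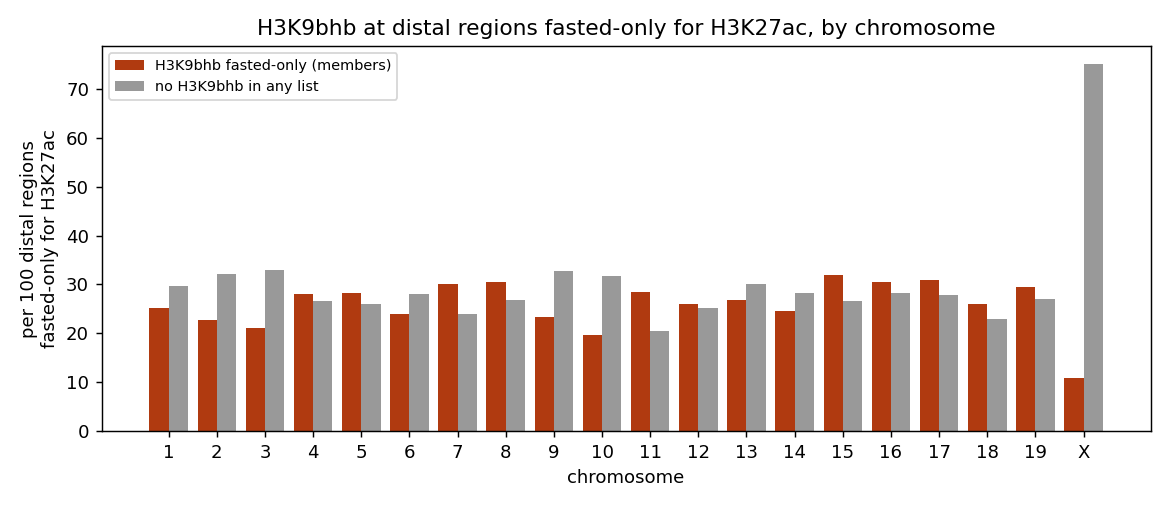
Members (red) and regions with no H3K9bhb in any list (grey), each per 100 distal regions that were fasted-only for H3K27ac, by chromosome. Members ranged from 19.7 to 31.9 per 100 on the autosomes and stood at 10.9 per 100 on the X chromosome, where 48 of the 64 regions had no H3K9bhb.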

How the data were processed

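Per the submitters' processing notes, the authors used FastQC, Bowtie 1.1.2, SAMtools 1.9, deepTools 1.5.11 and the mm9 build. Peaks were called with MACS 1 without a model, each library against the input of its own pool, per the file names. The deposited peak score is the authors' value. By its own convention MACS 1 writes such scores as −10 log10 of the peak's p-value. The 4 inputs had no list, and read totals, genes and sequences were not used here because the reference tables given are of another build.

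Positions are 1-based. Lists were merged and overlapped with own code (Python 3.11.15 with scipy 1.17.1, pandas 2.3.3 and numpy 2.4.6), which was checked against bedtools 2.31.1 and tested on simulated data, and figures were drawn with matplotlib 3.10.9. The members, the compared sets and the marks tested were chosen with earlier results of these data known. Named regions were the 10 members with the highest value of the lowest of their 4 score percentiles, the 5 members fasted-only for H4K12bhb with the highest lower H4K12bhb percentile, the 3 groups with the most members, and the members nearest to and farthest from fed acetylation. Shares of members with a peak were compared over pools by two-sided exact permutation tests, and sets by exact sign-flip tests within pools. The labels call the libraries of a group separate replicates, each from its own pool. Alternatives were lists of equal length, a score of at least 100, merging across 1000 bp, 50% cover, H3K4me3 kept 1000 bp away, marks counted within 500 bp, regions with H3K9me3 left out, no length limit, lengths of 2000 to 5000 bp, each pool left out, and each pair alone. The third compared set, the test of the difference between sets, members 5000 bp or more from fed peaks and counts of patterns at 2000 to 5000 bp were added after seeing the data.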

Additional observations from a re-analysis of the deposited data

How the results depend on the processing

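Across 255 values from 17 alternative settings for 16 results, 229 kept their direction or size, 20 changed sign and 6 counts of members moved by over 1.5 times. The number of members was 123 with lists of equal length, 639 with merging across 1000 bp and 2455 with 50% cover, and 1772 to 4978 with a pool left out. The fasted minus fed difference in H4K12bhb at the members was above 0 in all its alternatives, from 4.29 to 22.9 points with a pool left out. With H4K12bhb lists of equal length it was 8.55 points, and at members 5000 bp or more from fed peaks 26.4 points. With a pool left out, its excess ranged from 5.89 to 15.0 points over the set gaining H3K9bhb, 13.8 to 20.9 over the set with H3K9bhb in all pools and 4.99 to 15.2 over the set without H3K9bhb.

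Members minus the set with H3K9bhb in all pools also kept its sign for H4K12bhb, below 0. Apart from it and the differences above, each difference changed sign under some alternative, with causes that were not tested. With a pool left out, fasted minus fed ranged from −13.7 to 50.3 points (H3K4me1), −7.27 to 13.9 (H3K79me2) and 0.282 to 0.542 (H3K27me3). H3K79me2 was −0.156 in pair 11, and H3K27me3 −0.407 with lists of equal length. Members minus the set gaining H3K9bhb ranged from −3.52 to 3.59 points (H3K4me1), 0.655 to 3.17 (H3K79me2), −0.00757 to 0.117 (H3K27me3) and −9.52 to −5.41 (H4K12bhb) with a pool left out. That difference was −2.72 for H3K4me1 and −0.238 for H3K79me2 at a score of 100, 11.7 for H4K12bhb with lists of equal length, and −0.0833 for H3K27me3 with 50% cover and −0.0285 in pair 11. Members minus the set with H3K9bhb in all pools ranged from −24.2 to −5.52 (H3K4me1), −0.980 to 3.20 (H3K79me2), −0.0519 to 0.214 (H3K27me3) and −54.1 to −22.8 (H4K12bhb) with a pool left out. For H3K4me1 it was 2.70 with lists of equal length and 1.38 at 2000 to 5000 bp, and for H3K79me2 −0.0157 with H3K79me2 lists of equal length and −0.0297 in pair 10.

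No paired analysis was possible by replicate number because the fed pools (1 and 4) and the fasted pools (2 and 5) share none, and values within the pairs by library prefix were given with no test. With 2 pools a group, the smallest exact p of fasted against fed is 0.333. Peak lists hold no read depth, and an absent peak says that none passed the threshold in that list.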
